A study of Mus musculus with 8 samples.

Results

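In STHdh striatal cells transfected with Bcl11b, 74 array probes carrying 67 gene symbols were well detected and read higher on every Bcl11b array than on any mock array, out of 25697 probes carrying 18120 symbols. The probes with the largest differences read the RNA-editing deaminase Apobec1, the activin-binding protein Fst (follistatin), the AP-1 factors Fos and Atf3, the matrix proteoglycan Dcn (decorin) and the p53 target Cdkn1a (p21), at between 2.70-fold and 3.04-fold. For Cdkn1a this was the member probe with the largest difference, and its other member probes differed 2.00-fold and 1.60-fold. Of a list of 22 p53 targets and cell cycle inhibitors, 5 genes were among the 67. Of 13 AP-1 family genes with a probe, 3 were. Of the probes detected on all arrays, 0.791% were members. The lists were chosen with earlier results of these data known, so these counts do not show that such genes are frequent among the members. Without the members, the median log2 difference was 0.01 for the p53 list and 0.05 for the AP-1 list, against -0.026 for all detected probes. The members were selected on this same comparison, so the differences between the groups describe how they were chosen and carry no test.

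The selection took the deposited signals after quantile normalization, which gives every array the same distribution of values, set values under 1 to 1 and took log2. A probe was kept if its detection p-value was under 0.01 on all 8 arrays, if its lowest value on the 4 Bcl11b arrays exceeded its highest value on the 4 mock arrays, and if the group means differed by at least 0.6. There were 9360 probes detected on all 8 arrays, and the 74 members were 0.791% of them. With only the condition that the groups did not overlap, 234 of the 9360 (2.5%) were higher with Bcl11b and 691 (7.38%) lower. By the same limits in the other direction, 224 probes were lower.

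All 8 samples were wild-type STHdh cells, a line of mouse embryonic striatal progenitors made to divide by a temperature-sensitive viral large T antigen, grown under the same conditions and hybridized to Illumina MouseRef-8 v2 arrays. The mock group (4 samples, also called wild-type in the labels) received the empty plasmid pcDNA3.1, and the Bcl11b group (4 samples) received the same plasmid carrying mouse Bcl11b. The samples of a group were separate sets of transfected cells of 1 line, so the spread between them is not a spread between animals. The single Bcl11b probe was detected on 0 of the 8 arrays, and the level of the transfected gene is therefore not shown by these data.

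Bcl11b (also called CTIP2) is a zinc finger transcription factor of striatal projection neurons and T cells, which binds DNA and recruits chromatin-modifying complexes. AP-1 factors are dimers of Fos, Jun, Atf and Maf family proteins that bind short DNA sites and are made rapidly in stimulated or stressed cells. The p53 protein switches on genes that stop the cell cycle, such as Cdkn1a, and genes that promote cell death, such as Pmaip1 and Tnfrsf10b.

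Among 9 striatal neuron markers with a probe, 8 were detected on no array, including Ppp1r1b, Drd1a, Drd2 and Gad1, and Foxp1 was detected on all. Of 6 progenitor markers with a probe, Nes, Sox2 and Vim were detected on all arrays and Fabp7, Msi1h and Pax6 on none. Of 7 general neuron markers with a probe, Mtap2 and Stmn2 were detected on all arrays and 4 on none. Of 8 mesenchymal markers with a probe, 4 were detected on all arrays (Acta2, Col1a1, Dcn and Pdgfrb), and Col1a2, Lum and Thy1 were detected on none. The summed signal of the 5 detected on at least 1 array, these and Col3a1, was between 14017 and 16921 in mock cells and between 14965 and 15583 in Bcl11b cells, and most of it was Acta2 (10697 to 14268 and 11106 to 12197). A brighter Acta2 probe, under the symbol 0610041G09Rik (mock mean 14.4 and difference -0.02 on the log2 scale), was not in this sum. The markers differed in direction. Pdgfrb was lower on every Bcl11b array than on any mock array (difference -0.49 on the log2 scale), Col3a1 differed by -0.87, Acta2 by -0.04 and Col1a1 by 0.22, the last 3 with overlapping groups. Dcn, which is both a member and a mesenchymal marker, lay the other way from Pdgfrb, and the part of such cells in its value was not tested. No astrocyte, oligodendrocyte, microglia or endothelial marker was detected on all arrays. In RNA from whole cultures, a change in the number of cells of a kind and a change in RNA per cell cannot be told apart.

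Before normalization the mock arrays were brighter, with median signals of 31.6 to 53.9 against 20.1 to 30.2, and the number of detected probes was similar, from 10121 to 10784 over the 8 arrays. Without normalization the median difference of the probes detected on all arrays was -0.68 on the log2 scale. The 74 members then had a median difference of 0.03, which is 0.72 above that shift, and 44 of them were higher. After quantile normalization the median difference was 0.74 for the members and -0.026 for all detected probes. Every direction given here is therefore relative to the bulk of the detected probes. Arrays also stood apart within the groups. Over all detected probes, the deviations of Bcl11b replicate 4 from its group mean correlated with those of mock replicate 4 (r = 0.695) and mock replicate 2 (r = 0.561) and inversely with those of mock replicate 1 (r = -0.768). These are correlations across probes, which share the arrays and the normalization. Bcl11b replicate 4 was the highest array of its group for 50% of the detected probes and for 36.5% of the members.

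The promoters of 5 members are shown first, because they belong to the AP-1 and p53 groups with which the results begin and hold some of the short motifs searched. For each gene 1 annotated start is shown, and other starts of the gene may differ. These examples do not describe the members as a whole. The p53 half-site, for example, was in 4.92% of the member promoters, against 6.59% for detected genes. RefSeq sequences (GRCm38.p6) covered 61 promoters of 45 member genes, each 250 bases before to 50 bases after an annotated transcription start. In Cdkn1a (chr17:29090729-29091028, plus strand) and Ccng1 (chr11:40755237-40755536, minus strand) the capitals mark p53 half-sites, the ten-letter unit that p53 binds in pairs, and in Ccng1 also the CCAAT box.

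Cdkn1a: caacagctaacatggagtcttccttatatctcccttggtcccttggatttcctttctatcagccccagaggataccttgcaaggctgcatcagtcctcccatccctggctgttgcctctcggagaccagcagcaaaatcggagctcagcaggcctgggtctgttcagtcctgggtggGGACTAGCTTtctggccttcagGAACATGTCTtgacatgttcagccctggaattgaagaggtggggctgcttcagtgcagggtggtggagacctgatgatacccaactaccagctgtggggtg

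Ccng1: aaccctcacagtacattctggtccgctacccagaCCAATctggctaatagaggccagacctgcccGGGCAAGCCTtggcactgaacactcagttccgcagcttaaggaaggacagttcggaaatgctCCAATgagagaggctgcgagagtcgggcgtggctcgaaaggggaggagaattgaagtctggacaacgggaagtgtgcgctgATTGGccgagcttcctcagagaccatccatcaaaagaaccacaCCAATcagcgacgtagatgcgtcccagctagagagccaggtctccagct

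The Cdkn1a promoter held p53 half-sites at positions -73 to -64 and -51 to -42 from the start, and the Ccng1 promoter held 1 at -185 to -176. In Fos (chr12:85473640-85473939, plus strand) the capitals mark the TATA box (TATAAA), in Atf3 (chr1:191183284-191183583, minus strand) the ATF4 response element (TGATGNAA, here on the opposite strand) and the CCAAT box, and in Maff (chr15:79347270-79347569, plus strand) the cAMP response element (TGACGTCA).

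Fos: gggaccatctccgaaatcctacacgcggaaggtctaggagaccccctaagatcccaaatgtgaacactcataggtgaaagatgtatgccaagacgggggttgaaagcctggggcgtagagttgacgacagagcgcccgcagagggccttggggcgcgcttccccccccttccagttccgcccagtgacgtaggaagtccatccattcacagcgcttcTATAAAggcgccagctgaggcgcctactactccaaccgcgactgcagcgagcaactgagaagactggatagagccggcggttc

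Atf3: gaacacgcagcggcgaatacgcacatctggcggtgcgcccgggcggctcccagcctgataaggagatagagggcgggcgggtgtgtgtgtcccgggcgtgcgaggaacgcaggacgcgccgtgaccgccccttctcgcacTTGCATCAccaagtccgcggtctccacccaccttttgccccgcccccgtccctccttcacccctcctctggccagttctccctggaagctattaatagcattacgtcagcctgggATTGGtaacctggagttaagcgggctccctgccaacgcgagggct

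Maff: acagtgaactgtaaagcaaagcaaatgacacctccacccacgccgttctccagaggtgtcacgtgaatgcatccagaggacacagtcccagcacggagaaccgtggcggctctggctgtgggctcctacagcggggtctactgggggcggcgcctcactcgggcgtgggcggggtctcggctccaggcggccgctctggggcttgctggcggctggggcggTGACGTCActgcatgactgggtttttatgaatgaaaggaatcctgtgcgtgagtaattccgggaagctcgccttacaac

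Of the members, Fos (ILMN_2750515, chr12:85473890-85477274), which pairs with Jun proteins, had the third largest difference. Its log2 signal on mock arrays 1 to 4 was 7.86, 7.45, 7.29 and 7.51, and on Bcl11b arrays 1 to 4 it was 9.05, 9.22, 8.96 and 9.26. The group means were 7.52 ± 0.24 (SD, n = 4) and 9.12 ± 0.14 (SD, n = 4), a 3.03-fold difference, and 1.11 separated the nearest values of the groups. Atf3 (ILMN_2619408, chr1:191170296-191183333), a stress-induced factor of the ATF family, read 8.25, 8.47, 7.91 and 8.05 on the mock arrays and 9.67, 9.44, 9.78 and 9.67 on the Bcl11b arrays. Its means differed by 1.47 (2.76-fold), and the 2 groups lay well apart on all arrays. Maff (ILMN_1256996, chr15:79346621-79359078), a small Maf protein without a transactivation domain, read 7.99, 7.62, 7.69 and 7.42 on the mock arrays and 8.68, 8.62, 8.87 and 8.53 on the Bcl11b arrays. Its means differed by 1.00 (1.99-fold), and its lowest Bcl11b array was replicate 4.

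The remaining AP-1 family genes differed among themselves in direction and size. Of the 7 others with a representative probe detected on all arrays, 5 were higher and 2 lower, with a median difference of 0.05 against -0.026 for all detected probes. With the 3 members counted in, the median was 0.28, which the selection of Fos, Atf3 and Maff raises. The probes of Fos, Atf3 and Maff passed limma's threshold of 0.10, adjusted over all probes by the Benjamini-Hochberg method, in the higher direction and 0 of the 13 passed in the lower. Of all 25697 probes, 0.354% passed higher and 0.627% lower. With the replicate number as a block, 0 genes of the list passed in place of 3. Since all 3 were selected on this contrast, nothing is read from that count. Junb and Jund1, partners of Fos, had differences of 0.40 and 0.69 with overlapping groups, Jun 0.17, Fosb 0.05 and Fosl1 -0.08. Jundm2 (now Jdp2), which represses AP-1 sites, lay the other way, at 9.11 ± 0.29 (SD, n = 4) in mock and 8.45 ± 0.15 (SD, n = 4) in Bcl11b cells, with no overlap. Of a list of 28 immediate early genes, 19 were detected on all arrays with a median difference of -0.02, and 0 of its genes were members. Fos and Atf3 stood on the AP-1 list and not on that one.

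The 5 members on the p53 list were Trp53inp1, Cdkn1a, Tnfrsf10b, Pmaip1 and Ccng1. Cdkn1a (chr17:29090979-29100722), the p21 inhibitor of cyclin-dependent kinases, was the only gene with 3 member probes. The probe ILMN_2846776 read 8.58, 8.97, 7.72 and 8.08 on the mock arrays and 9.52, 9.34, 9.99 and 10.22 on the Bcl11b arrays, a difference of 1.43 (2.70-fold). The probe ILMN_2846775 read 10.70, 10.21, 9.76 and 10.10 against 11.24, 11.13, 11.26 and 11.15, a difference of 1.00 (2.00-fold). All 3 probes put the Bcl11b arrays above the mock arrays, the third (ILMN_2634083) by 0.67 (1.60-fold). Their sizes differ, so a single fold for Cdkn1a cannot be given.

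Trp53inp1 (ILMN_2506012, chr4:11156441-11174379), a stress protein that promotes p53-dependent death and autophagy, read 8.22, 8.73, 8.29 and 9.10 on the mock arrays and 9.83, 9.99, 9.78 and 10.02 on the Bcl11b arrays. Its means differed by 1.32 (2.50-fold), and mock replicate 4 was the nearest mock array. Pmaip1 (ILMN_2670625), the BH3-only protein Noxa, read 7.98, 8.19, 8.0 and 8.61 in mock and 8.76, 8.88, 8.84 and 9.51 in Bcl11b cells, a difference of 0.80 (1.75-fold). Replicate 4 was the highest array in both of its groups, and 0.15 separated the nearest values.

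Tnfrsf10b (chr14:69767472-69784411) encodes the death receptor for TRAIL. Its member probe, ILMN_2945095, read 6.94, 7.99, 7.03 and 6.76 on the mock arrays and 8.09, 8.14, 8.85 and 8.30 on the Bcl11b arrays, a difference of 1.16 (2.24-fold). The gap between the groups was set by mock replicate 2. The other 2 Tnfrsf10b probes detected on all arrays had differences of -0.05 and -0.07 with overlapping groups, so the result for this gene rests on 1 probe. Ccng1 (chr11:40748552-40755309), cyclin G1, had the tightest groups of the 5. Its member probe ILMN_2702233 read 9.73, 9.86, 9.63 and 9.73 in mock and 10.43, 10.28, 10.30 and 10.36 in Bcl11b cells, which at a difference of 0.60 (1.52-fold) was at the edge of the selection. A second Ccng1 probe differed by 0.53 with no overlap, and the third by 0.14.

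Over the p53 list, 17 genes had a representative probe, the brightest under the gene's symbol, detected on all arrays. Of these, 12 were higher and 5 lower, with a median difference of 0.20. Without the 5 member genes, 7 of the remaining 12 were higher and 5 lower, and the median was 0.01, against -0.026 for all detected probes. Of the 22 representative probes, 1 passed the adjusted threshold higher (Trp53inp1) and 0 lower, against 0.354% and 0.627% of all probes. The groups separated upward for 5 of the 17, against 2.5% of all detected probes, and 4 of these 5 were selected for it, so nothing is read from either count. Other genes of the list detected on all arrays overlapped between the groups, including Mdm2 at 0.43, the p53 ubiquitin ligase, Bax at 0.84 and Phlda3 at 0.33, except Cdkn2c, at 0.20 with no overlap. Bbc3, Sesn1, Plk2, Ei24 and Gadd45a lay between -0.06 and 0.03. Cdkn2b and Cdkn2d, inhibitors of the kinases Cdk4 and Cdk6, were at -0.44 and -0.38. Fas, a death receptor on the list, read 6.37 ± 0.47 (SD, n = 4) and 7.80 ± 0.43 (SD, n = 4) with no overlap and was left out because it was not detected on all arrays.

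**Figure D1:**
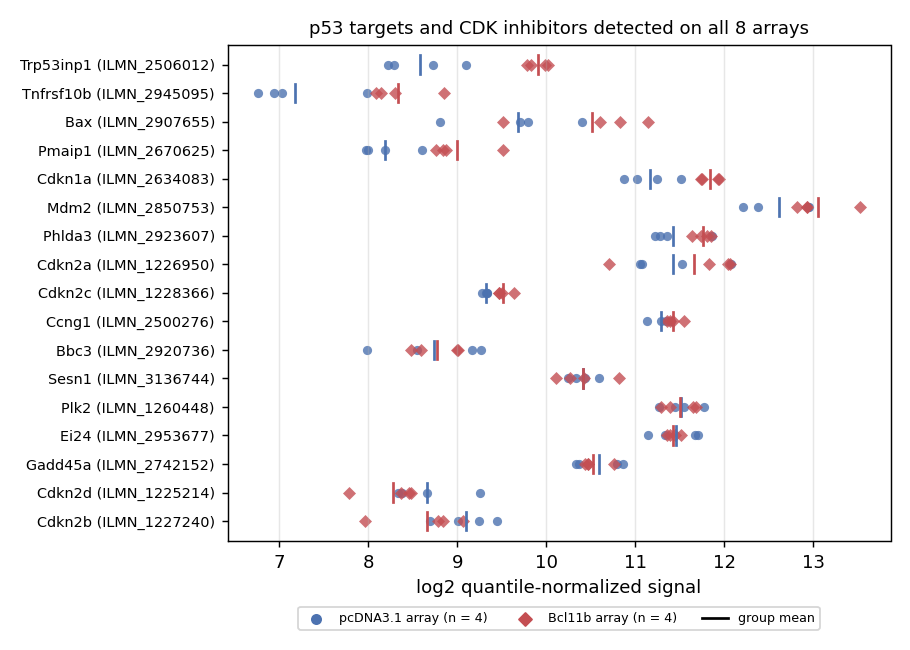
Log2 quantile-normalized signal (horizontal axis) of 17 p53 targets and CDK inhibitors, ordered by the difference of means. Each is shown by the brightest probe under its symbol, which was detected on all 8 arrays. Blue circles are the 4 mock (pcDNA3.1) arrays, red diamonds the 4 Bcl11b arrays and vertical lines the group means; the groups separate for Cdkn2c and, as selected, for Trp53inp1, Tnfrsf10b, Pmaip1 and Cdkn1a, and overlap for the rest, with Cdkn2b at -0.44 at the bottom.

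Rbm38, an RNA-binding protein that stabilizes Cdkn1a mRNA, is on none of the lists and had a pair of member probes, with differences of 0.96 and 0.83. The probe ILMN_2926155 read 8.85, 9.26, 8.55 and 8.51 on the mock arrays and 9.68, 9.49, 9.77 and 10.07 on the Bcl11b arrays. C86987 (now Ccno), a cyclin, read 7.45, 6.61, 7.39 and 7.15 against 8.41, 8.53, 8.33 and 8.53, a difference of 1.30. Rb1, the retinoblastoma protein that holds cells before S phase, read 7.28, 8.56, 7.70 and 8.15 against 8.78, 8.99, 8.81 and 9.35, a difference of 1.06, while its second probe differed by 0.18 with overlapping groups.

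Secreted and matrix proteins included some of the largest values. Fst (ILMN_1228958, chr13:114452262-114458989) read 8.40, 8.74, 8.07 and 8.28 on the mock arrays and 10.01, 9.85, 10.17 and 9.88 on the Bcl11b arrays, a difference of 1.60 (3.04-fold). It was the only member among 25 listed activin and TGF-beta genes, of which 17 were detected on all arrays with a median of -0.22 (-0.24 without Fst). Dcn (ILMN_2747959, chr10:97479500-97518163) read 7.83, 7.15, 7.23 and 6.95 in mock and 8.79, 8.82, 8.82 and 8.60 in Bcl11b cells, a difference of 1.47 (2.77-fold). It was the only member among 24 matrix genes, whose median was -0.17 over the 18 detected (-0.24 without Dcn). Neither list shifted upward as a whole. Ptx3, the soluble pattern receptor pentraxin 3, had a pair of member probes at 1.05 and 1.03 and was the only member of 15 NF-kB and chemokine genes. Igfbp5, which binds insulin-like growth factors, differed by 0.73, the growth factor Hdgf by 0.65 and Tnfrsf11b (osteoprotegerin, the decoy receptor for RANKL) by 0.61. The chemokine Ccl5 had a larger difference than any member, 1.68, and was left out because its groups overlapped.

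RNA-binding and splicing proteins made up another group by role, put together after the values were seen and so without a count against other genes. Apobec1 (ILMN_1257631, chr6:122577792-122603024) read 7.30, 6.80, 6.53 and 7.05 in mock and 8.42, 8.45, 8.46 and 8.75 in Bcl11b cells, a difference of 1.60 (3.04-fold). Sf3b4, a subunit of the U2 particle, read 7.29, 8.94, 7.98 and 7.78 against 9.11, 9.13, 9.45 and 9.34, a difference of 1.26. Mock replicate 2 came within 0.17 of the Bcl11b group, and the other Sf3b4 probe detected on all arrays differed by -0.23. Rbm15, of the RNA methylation complex, differed by 0.84, Luc7l, of the U1 particle, by 0.68, Txnl4 (now Txnl4a), of the U5 particle, by 0.64 and Snrpa (the A protein of the U1 particle) by 0.61.

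The proteins of DNA repair named here, grouped after the values were seen as well, had differences from 0.64 to 0.70. These were C230052I12Rik (now Faap24) of the Fanconi pathway (0.70), Rad51ap1 of homologous recombination (0.68), the nuclease Mus81 (0.65), Adprhl2, which removes ADP-ribose (0.65), and the polymerase Polb (0.64). The nearest values of the groups lay 0.02 apart for Mus81 and 0.24 apart for Rad51ap1. All of these lay in the lower range of the members' differences.

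Chromatin and nuclear proteins were Ccdc95 (now Ino80e, of the INO80 remodelling complex) at 1.07, the zinc finger proteins Zfp213 at 1.03 and Zfp428 at 0.90, the histone chaperone family protein Npm3 at 0.81, Ing3 of a histone acetyltransferase complex at 0.74, the nuclear envelope protein emerin (Emd) at 0.70 and the DNA-binding protein Thap1 at 0.64. In metabolism, Pmm1 (phosphomannomutase) had a pair of member probes at 1.04 and 0.97, the sialyltransferase Siat7d (now St6galnac4) was at 0.76, the glutathione-binding protein Lancl1 at 0.65, and Ass1 (argininosuccinate synthase) and Srm (spermidine synthase) were at 0.61. Srm was the brightest member, with a mock mean of 11.91.

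At the membrane and in trafficking, the zinc importer Slc39a3 differed by 0.78, Syngr2 (synaptogyrin 2) by 0.72 and 0.69 on a pair of probes, integrin beta Itgb1 by 0.71, the mannose-6-phosphate receptor Igf2r by 0.61 and the orphan receptor Gpr19 by 0.60. The actin nucleator Cobl was at 0.81, the autophagy proteins Wdr45l (now Wdr45b) and Tex264 at 0.87 and 0.81, the dynactin subunit Dctn4 at 0.74, the PDZ protein Gipc1 at 0.70, the endosomal sorting protein Stam at 0.67, 9630058J23Rik (now Cnst) at 0.67, Sh3yl1 at 0.61 and the Rab regulator A630005A06Rik (now Tbc1d2) at 0.61. Protein processing was represented by the protease Pcsk4 (0.74), the ubiquitin ligase Trim32 (0.66) and the signalosome subunit Cops7a (0.62). The remaining members were 2210016L21Rik at 1.17 and 1.00, 3110023B02Rik (now Ccdc137) at 1.00, Ankrd54 at 0.85, 2900055D14Rik (now Tmem138) at 0.74, BC011248 at 0.69, D19Ertd737e (now Fam204a) at 0.65, Btbd9 and Lrrc28 at 0.62 and Pde4dip at 0.61.

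**Figure D2:**
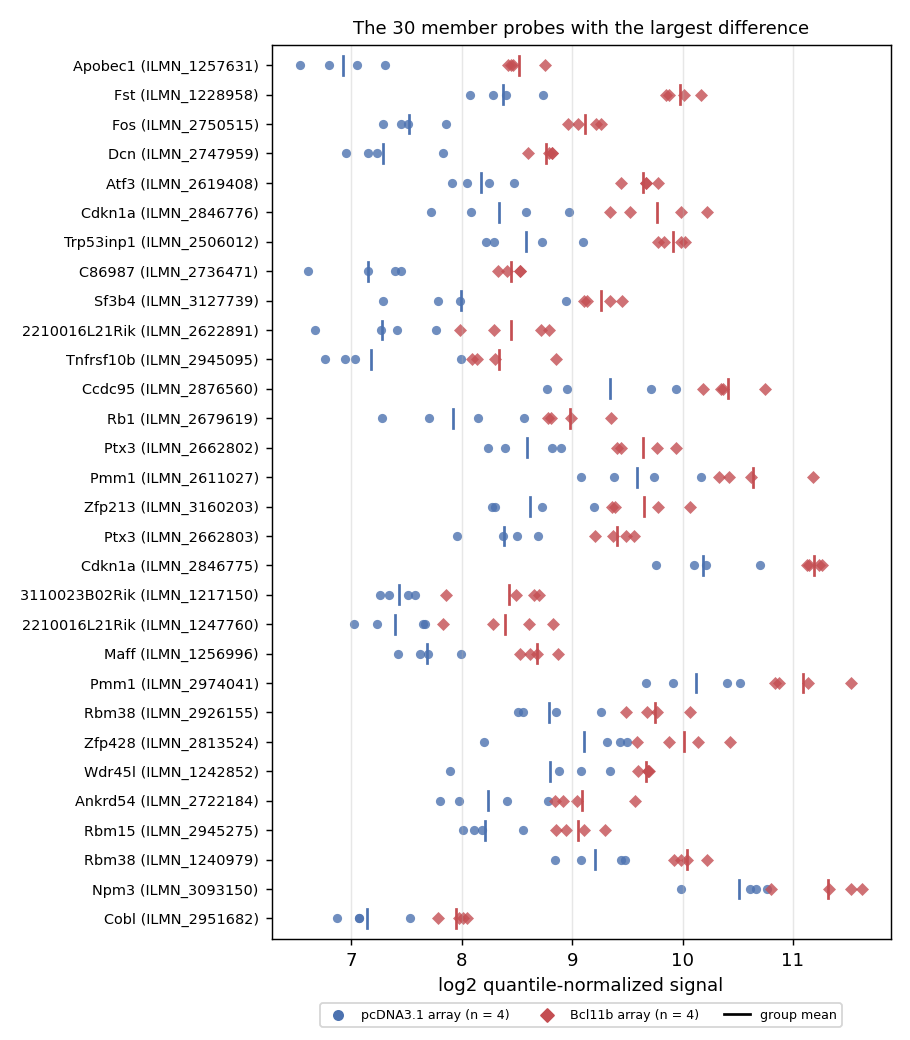
Log2 quantile-normalized signal (horizontal axis) on the 8 arrays for the 30 member probes with the largest difference, labelled by symbol and probe. Blue circles are the 4 mock (pcDNA3.1) arrays, red diamonds the 4 Bcl11b arrays and vertical lines the group means; the groups lie far apart for Apobec1, Fst, Fos and Atf3 and nearly touch for Tnfrsf10b and Npm3, which is how the selection allows them.

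The differences of the 74 probes ran from 0.60 to 1.60 with a median of 0.74. There were 19 probes of 17 symbols at 1 or more, and 42 probes lay under 0.8. The lowest Bcl11b value exceeded the highest mock value by a median of 0.21, by over 0.5 for 11 members and by under 0.1 for 20. Just inside the limit were Tnfrsf11b and Pde4dip (0.61) and Ccng1 and Gpr19 (0.60), and just outside were a second Gipc1 probe and Ahi1 (0.60 when rounded), Slc25a25 and a second Stam probe (0.59) and Hel308 (0.58). The limit therefore cuts through a run of similar values. Of 425 detected probes with a difference of at least 0.6, 351 were left out because their groups overlapped, such as Gsk3a (1.36), Tomm7 (1.35) and Sepw1 (1.23). A further 91 probes detected on at least 1 array met the limits on signal and failed only on detection. Of these, 17 were detected on exactly the 4 Bcl11b arrays. Probes detected on no array were not counted. By limma, 15 of the 74 probes passed the adjusted threshold, against 0.354% of all probes, from which nothing is read because the selection used the same values.

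Members were dim. Their median mock level was 8.23 against 9.71 for all probes detected on all arrays, and 65 of the 74 lay below that median. The median SD of the members was 0.32 on the mock arrays and 0.17 on the Bcl11b arrays, against 0.28 and 0.22 for all detected probes. For 61 members (82.4%) the mock SD was the larger, as it was for 63% of all detected probes. Mock replicate 2 was the highest mock array for 41 members (55.4%) and for 25.1% of all detected probes. Bcl11b replicate 3 was the highest Bcl11b array for 32 members (43.2%) and for 15.6% of the detected probes. Bcl11b replicate 2 was the lowest Bcl11b array, the one that sets the gap, for 25 members (33.8%) and for 20.6% of the detected probes. The arrays therefore bounded the groups unequally in the members. The condition that groups not overlap depends on the spread within the groups, so these values are descriptions.

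**Figure D3:**
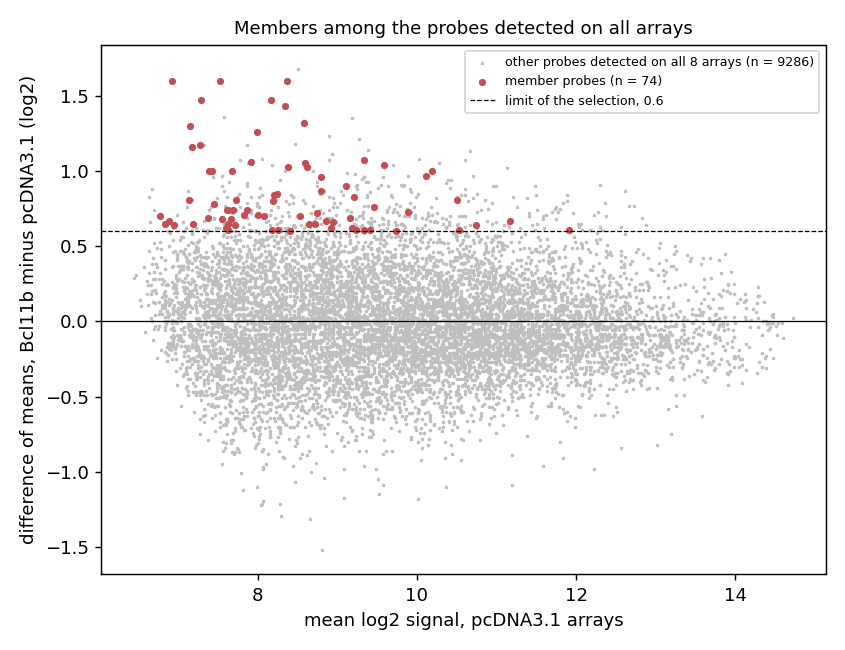
Difference of the group means (vertical axis, log2, Bcl11b minus pcDNA3.1) against the mean log2 signal on the mock arrays (horizontal axis) for the 9360 probes detected on all 8 arrays. Red points are the 74 members and grey points all other probes; the dashed line is the limit of 0.6, above which many grey points remain because their groups overlap, and most members lie at low signal.

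To read the selection on arrays that had not entered the comparison of groups, 1 array of each group was left out. The same limits on overlap and difference were applied to the remaining 6. The probes chosen were read on the pair left out, for all 16 pairs. Detection and quantile normalization were kept as in the main selection, over all arrays, so the left-out arrays had entered both. In the 9 pairs that left out neither mock replicate 2 nor Bcl11b replicate 4, between 74 and 114 probes were chosen, and from 85.6% to 97.3% of them were higher on the left-out Bcl11b array than on the left-out mock array. For all detected probes that share lay between 39.5% and 51% over the 16 pairs. With Bcl11b replicate 4 left out, 432 to 884 probes were chosen, and between 9.95% and 71.5% were higher. With mock replicate 2 left out and Bcl11b replicate 4 kept, 292 to 378 probes were chosen and from 28.3% to 51% were higher. Of the 7 pairs that left out either of these arrays, the share was above that of all detected probes for mock replicate 4 with Bcl11b replicate 4 (71.5% against 48.1%) and for mock replicate 2 with Bcl11b replicate 3 (51% against 40.2%), and below it for the other 5. A second reading left out 1 array at a time and counted the chosen probes that lay beyond all 4 arrays of the other group. Their share was from 73.1% to 98.5%, except for mock replicate 2 (27.6% of 293) and Bcl11b replicate 4 (11.5% of 585). For all detected probes the share lay between 14.1% and 27.5%. It was 14.1% for mock replicate 2, below the share of the probes chosen, and 27.5% for Bcl11b replicate 4, above it. The other group's arrays had been used in choosing the probes, so this second reading is not independent of the selection.

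**Figure D4:**
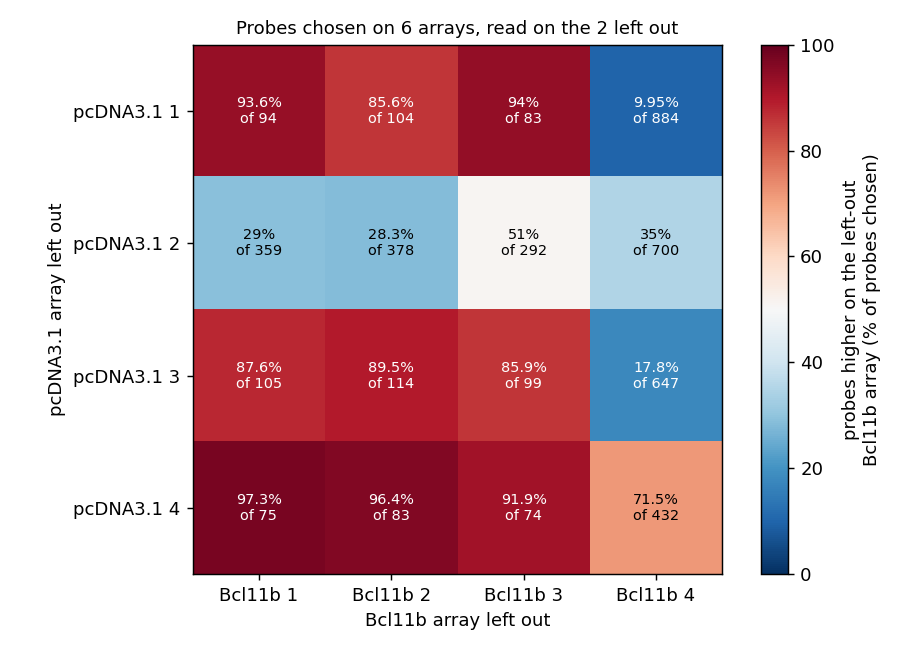
Share of the probes chosen on 6 arrays that were higher on the left-out Bcl11b array than on the left-out mock array, in percent (colour and upper number). The number of probes chosen is below it, for the 16 pairs of 1 mock (rows) and 1 Bcl11b (columns) array. Detection and normalization used all arrays. The row of mock replicate 2 and the column of Bcl11b replicate 4 hold the low shares, down to 9.95%, and all other pairs are at 85.6% or above.

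The 74 members themselves kept their direction when single arrays were dropped, as the selection requires. Their median difference lay between 0.70 and 0.83 with any 1 array left out, and was 0.83 without both mock replicate 2 and Bcl11b replicate 4. Their number depends on these arrays. Without mock replicate 2 the rule chose 298 probes, of which 63 were among the 74, and without Bcl11b replicate 4 it chose 590, of which 66 were. Without both it chose 717. Dividing each array by its median in place of quantile normalization gave 145 probes higher and 136 lower, against 74 and 224, and 69 of the 74 still did not overlap.

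For 41 of the 67 symbols the arrays carried 71 further probes, of which 52 (32 symbols) were detected on all arrays. These had failed the selection, so a lower value is built in. They had a median difference of 0.31 and 73.1% were higher, against 46.6% of all detected probes. In 11 of the 52 all Bcl11b arrays exceeded all mock arrays, and in 0 the reverse held, against 2.5% and 7.38% of all detected probes. The further probes share their gene, arrays and contrast with the members, so these are descriptions. Lancl1 (0.55), Srm (0.56), Cops7a (0.54), Syngr2 (0.55) and Igf2r (0.33) each had such a further probe. The second Ing3 probe differed by 0.81, more than the member probe, with overlapping groups. Other further probes differed little or in the opposite direction. The second probe of Itgb1 differed by -0.40, 1 of the 3 further Wdr45l probes by -0.67, and the further probes of Tex264, Mus81 and Snrpa by -0.08, -0.09 and -0.15. The further 3110023B02Rik probes, brighter than its member probe (mock means 11.42 and 10.54 against 7.43), differed by 0.05 and -0.02. Those of Luc7l, Trim32 and Dctn4 differed by 0, 0.07 and 0.15. The brightest Hdgf probe differed by -0.02, and its other further probes by 0.53 and 0.57. Differences given by name for these and the other members apply to the member probe only.

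**Figure D5:**
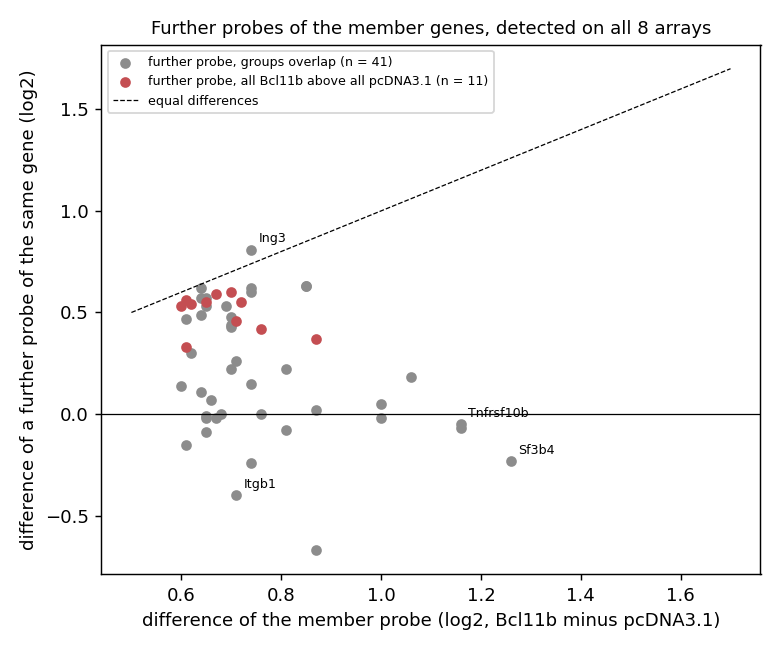
Difference of each of the 52 further probes detected on all arrays (vertical axis, log2, Bcl11b minus pcDNA3.1) against that of the member probe with the largest difference of the same gene (horizontal axis). Red points are the 11 further probes whose groups do not overlap, and the dashed line marks equal differences; nearly all points lie below it, as the selection builds in, and those of Tnfrsf10b, Sf3b4 and Itgb1 lie below 0.

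Members lay on 19 chromosomes with at most 5 genes on any of them. Their promoters had a median GC content of 59.7%, against 52.7% for all 32851 promoters and 61.3% for the 7176 promoters of genes detected on all arrays. The GC box (GGGCGG, either strand, as for all motifs) was in 63.9% of the member promoters, in 35.7% of all promoters and in 66.2% of those of detected genes, so the share in the members was close to that of the detected genes. The cAMP response element was in 4 of 61 member promoters (6.56%), those of Ing3, Maff and Snrpa, against 3.4% for detected genes and 1.79% of all. The TATA box was in 11.5%, Fos and Apobec1 among them, against 6.65% and 13.6%. The AP-1 site (TGANTCA) was in 1 member promoter, that of Rbm38 (1.64%), against 4.72% and 7.81%. The p53 half-site was in 3 (4.92%), those of Cdkn1a, Ccng1 and Ccdc95, against 6.59% and 8.36%, and the ATF4 response element was in those of Apobec1, Atf3 and Lancl1 (4.92%), against 2.13% and 3.97%. Of motifs that the study derived for Bcl11b, ACCACA was in 14.8% of the member promoters, TGCTTG in 11.5%, AGTGCT in 8.2% and GGATCA in 9.84%, against 12%, 12.6%, 12.7% and 7.41% for detected genes. The counts behind these shares are small. A match says only that the letters are present in this window.

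Other lists placed beside the members held 0 of them. Histone genes had the largest median of any list, 0.64 over 34 detected genes, of which 32 were higher, and 0 of them had groups that did not overlap. Complex I subunits had a median of 0.59 over 28 detected, also with no separated group. Cholesterol synthesis genes had a median of -0.27 over 17 detected, and the ATF4 pathway -0.15 over 33. The high medians of the histone and complex I lists thus came from probes whose groups overlapped, which the selection leaves out.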

How the data were processed

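RNA from 8 samples was measured on Illumina MouseRef-8 v2 arrays. The authors deposited 1 intensity per probe and array, a mean over beads from which GenomeStudio had subtracted the background, with no normalization between arrays. The deposited detection p-value of each probe compares it with negative control beads of the same array. The labels gave groups and replicate numbers.

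After quantile normalization, values under 1 were set to 1 and log2 was taken. The comparison of groups used limma 3.58.1 (lmFit, eBayes, no covariate) in R 4.3.3 over all 25697 probes, with Benjamini-Hochberg adjustment at 0.10, and was tested on simulated data. Members were selected as stated in the report, and the members, gene lists and motifs were chosen with earlier results of these data known. Named genes are all members but 1, which is not reported here, the nearest probes inside and outside the limits, and listed genes beside them. A listed gene was represented by the brightest probe under its symbol on the array. Where that symbol was present, probes of the gene under another symbol were not used. The p53 half-site, the pairs of left-out arrays and the fit without both doubted arrays were added after the data were seen. Symbols were matched to RefSeq (GRCm38.p6), 66 of 67 member symbols, 11 of them by an older symbol. P-values measure only the spread between these samples, and the number of arrays limits the precision. Chromatin and PCR experiments of the study were not analysed here.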

Additional observations from a re-analysis of the deposited data

Results flagged for a closer look

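In each group of 4 arrays, a value was set apart if its gap to the nearest array was large against the range of the group (Dixon's test). Over the 74 members this met 9 of 148 groups (6.08%). The nominal rate of the test, about 1 in 20, holds for unselected groups of independent values. The members were selected on values that depend on their spread, and they share arrays, so that rate is no measure for them. A share over all detected probes is not given here. On Bcl11b replicate 4, Apobec1 (8.75), Pmaip1 (9.51), Btbd9 (8.56) and Tnfrsf11b (10.35) lay above the rest of their group and Dcn (8.60) below it. On other arrays, Zfp428 lay low on mock replicate 4 (8.20), Tnfrsf11b low on mock replicate 3 (9.20), Wdr45l low on Bcl11b replicate 2 (9.60) and BC011248 high on Bcl11b replicate 3 (8.41). Of the 9 values, 5 came from Bcl11b replicate 4. Over all detected probes, that array was the highest of its group for 50% and the lowest for 30.5%.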

How the results depend on the processing

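The direction and size of the 74 members kept within the spread of the arrays under neqc, an offset of 16, division by the array median and each array left out. With an array left out the direction is fixed by the selection. All of these settings use the arrays on which the members were chosen. Without normalization between arrays 30 fell below 0 and 44 moved closer to it, which follows the shift of all detected probes by -0.68. Those below 0 included Gipc1 and 9630058J23Rik at -0.02, C230052I12Rik and Snrpa at -0.05, Emd and Syngr2 at -0.01, BC011248 and Lancl1 at -0.04, Rad51ap1, Luc7l and Hdgf at -0.06, Stam and Cops7a at -0.07, Trim32 at -0.03, Mus81 and D19Ertd737e at -0.08, Adprhl2, Lrrc28, Ass1, A630005A06Rik and Ccng1 at -0.09, Polb, Igf2r and Tnfrsf11b at -0.10, Thap1 and Btbd9 at -0.11, Sh3yl1 and Pde4dip at -0.12, Gpr19 at -0.13.

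The number of selected probes was 2 without normalization, 145 with division by the array median, 123 with detection on at least 4 arrays, 113, 32 and 19 with limits of 0.5, 0.8 and 1, and 42 with the brightest probe per symbol. Leaving out 1 array gave 70 to 590, and leaving out mock replicate 2 and Bcl11b replicate 4 together gave 717. The median difference rose to 1.03 and 1.17 with limits of 0.8 and 1. The probes past the adjusted threshold, 252 in all, were 57 without normalization, 144 with division by the median, 413 with neqc, 137 with only probes detected at 0.05 on all arrays, 45 with limma-trend and robust eBayes, 642 with arrayWeights and 87 to 637 with 1 array left out. The members among them, 15, ran from 0 without normalization and 4 under limma-trend to 33 with arrayWeights. With division by the median, 0 genes of the p53 list passed higher, in place of 1.

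The labels do not say whether equal replicate numbers mark paired samples, and the values do not settle it. Correlations of same-numbered deviations were 0.677, -0.63, 0.182 and 0.695, and 2 of 4 correlated best with their own number. Deviations from a group mean offset each other, so some inverse correlations are built in. With the replicate block 45 probes passed the adjusted threshold, 2 of them members, and 0 AP-1 genes in place of 3, and 289 probes met the selection within numbers. The number of arrays and the dimness of the members limit the precision. The causes of these changes were not tested.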
